A study of Rattus norvegicus with 6 samples.

Results

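The 8 miRNAs described here are known from white blood cells and from inflammatory signalling: rno-miR-142-3p, rno-miR-142-5p, rno-miR-150-5p, rno-miR-155-5p, rno-miR-223-3p, rno-miR-146a-5p, rno-miR-146b-5p and rno-miR-342-3p. They were chosen by name, and all 8 were found once each among the 420 mature miRNAs of the table. Small RNA from plasma exosomes of adult male Sprague Dawley rats weighing 200 to 250 g had been sequenced in 6 libraries. EXO1 held 3 libraries from rats injected intraperitoneally with the solvent, 5% DMSO in PBS, and EXO2 held 3 libraries from rats injected with melatonin at 10 mg/kg in the same solvent, the injections being given for 7 days and plasma being taken on day 8. The methods name saline in place of PBS and a commercial isolation kit in place of the centrifugation at 10000 g for 70 min that the labels describe. No label says whether a library came from 1 rat or from pooled plasma. The p-values thus set the group difference only against the spread between these libraries, and that spread may be technical.

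miRNAs bind target mRNAs mainly through the seed, bases 2 to 8 from the 5′ end, and repress them. miR-142 is made from 1 precursor in nearly all blood cell types and both of its arms are functional. miR-223 is a granulocyte and monocyte miRNA that is also abundant in platelets, whereas miR-150 is abundant in mature lymphocytes and miR-342-3p is found in lymphocytes and other blood cells. miR-155, miR-146a and miR-146b are induced by Toll-like receptor and NF-κB signalling in macrophages. miR-155 favours the inflammatory response, while the miR-146 pair dampens it by repressing the adaptor proteins Irak1 and Traf6.

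Mature sequences from RefSeq (build GRCr8) were matched for 7 of the 8 miRNAs and are shown, 5′ to 3′ with the seed in capitals, because the seed sets which members can share targets.
miR-146a-5p: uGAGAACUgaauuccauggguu
miR-146b-5p: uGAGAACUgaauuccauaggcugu
miR-155-5p: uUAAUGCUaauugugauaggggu
miR-223-3p: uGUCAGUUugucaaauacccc
miR-142-5p: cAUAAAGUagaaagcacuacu
miR-142-3p: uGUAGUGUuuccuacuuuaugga
miR-342-3p: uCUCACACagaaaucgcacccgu

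These sequences held 6 distinct seeds, and only miR-146a-5p and miR-146b-5p shared one. No other mature rat miRNA in the RefSeq table carried any of the 6 seeds. The miR-146 pair was identical over the first 17 bases. Counted from the 5′ end of miR-146a-5p, the differences from miR-146b-5p were G18A and U21C, and miR-146b-5p ran on for 2 further bases. Since reads down to 15 nucleotides had been kept, a read that stops within those 17 bases fits both miRNAs, and the sources used here do not say how such reads were assigned.

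The miRNA genes lie apart in the genome (GRCr8). The hairpin of miR-146a is at chr10:28349996-28350090 on the minus strand, within the span of a long noncoding RNA gene, and that of miR-146b is at chr1:255144860-255144947 on the plus strand, within the span of C1h10orf95. The miR-155 hairpin is at chr11:37261114-37261178 in its host gene Mir155hg, the miR-223 hairpin at chrX:65151383-65151492, and the miR-342 hairpin at chr6:133329655-133329753 within Evl, all on the plus strand. Both miR-142 arms come from 1 hairpin of 87 bases at chr10:73055104-73055190 on the plus strand, within the span of Tspoap1. It is printed here with the 5p arm and then the 3p arm in capitals, because the arms are compared below.
Mir142: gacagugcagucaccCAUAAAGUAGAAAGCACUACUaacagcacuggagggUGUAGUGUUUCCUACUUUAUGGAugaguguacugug

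Values are the deposited normalized CPM, reads scaled to the library total (CPM) and divided by a composition factor per library. The factor was 0.264, 1.855 and 1.517 in EXO1 replicates 1, 2 and 3 and 1.377, 1.038 and 0.941 in EXO2 replicates 1, 2 and 3. Division by the low factor raised the values of EXO1 replicate 1 far more than those of any other library. The libraries differed widely in make-up. miRNAs of red blood cells, a list of 9 led by miR-451-5p, took 7.86% to 23.9% of the reads in the EXO1 libraries and 57.6% to 67.7% in the EXO2 libraries, and a list of 8 muscle miRNAs took 82.6% of EXO1 replicate 1 but 0.738% to 23.2% of the others. Depth was 2279500 to 5868405 miRNA reads in the EXO1 libraries and 3033119 to 4999379 in the EXO2 libraries. The members were read 62 to 21502 times per library, except for miR-342-3p in EXO2 replicate 1. Together they took 0.131%, 0.735% and 1.38% of the reads in the EXO1 libraries and 0.661%, 0.497% and 0.452% in the EXO2 libraries. Among the reads outside the red cell and muscle lists their combined share was far more even, at 1.36%, 1.39% and 1.57% in the EXO1 libraries and 1.61%, 1.46% and 1.44% in the EXO2 libraries. Intervals from read counts cover counting error only, and fewer vesicles from a cell type cannot be told apart from less miRNA per vesicle in such samples.

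**Figure D1:**
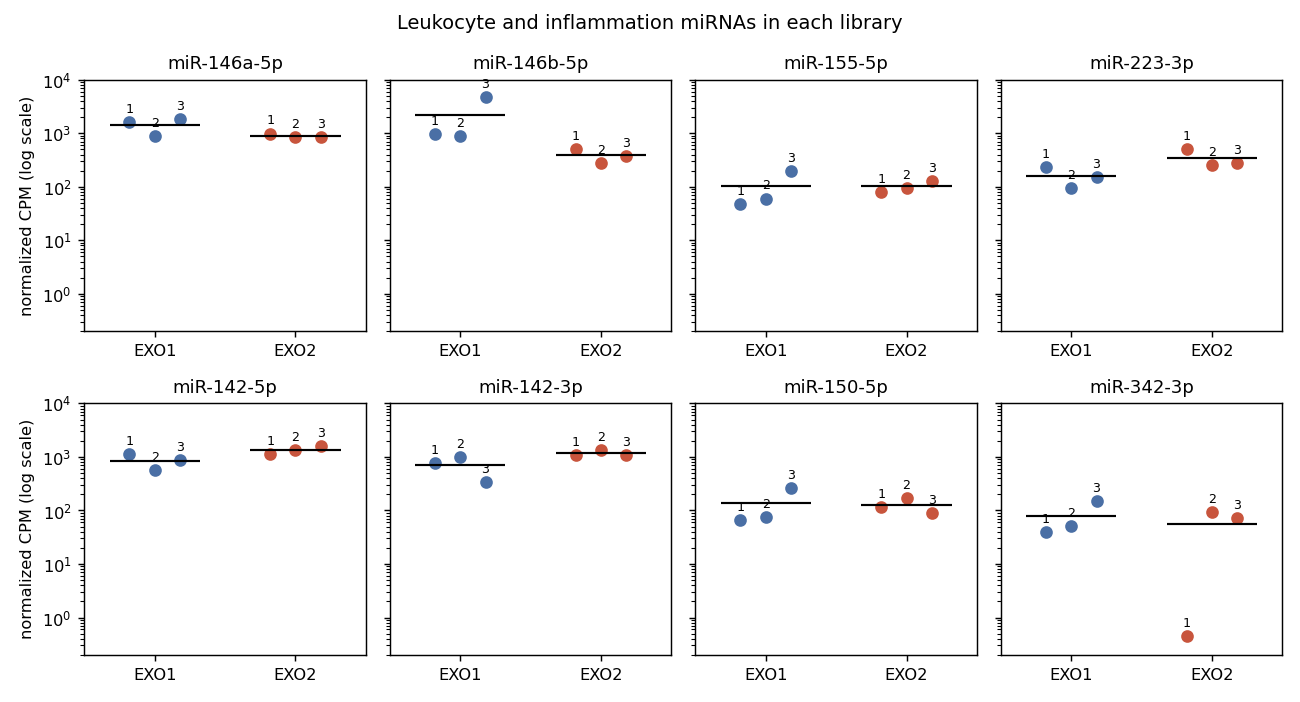
Normalized CPM (log scale) of the 8 miRNAs in the 3 EXO1 and 3 EXO2 libraries. Each point is a library with its replicate number and each bar is the group mean. The EXO2 points of miR-146b-5p lie below all EXO1 points, those of miR-223-3p, miR-142-5p and miR-142-3p lie above them, and the point of miR-342-3p in EXO2 replicate 1 stands at 0.443.

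EXO2 was compared with EXO1 by limma on log2(normalized CPM + 1) over 410 miRNAs above 0 in at least 2 libraries. miR-146b-5p had its 3 EXO2 values below its 3 EXO1 values, and miR-223-3p and both miR-142 arms had all EXO2 values above all EXO1 values. None of the 8 miRNAs passed an adjusted p of 0.05, as was the case for all miRNAs tested (0.0% called, 54 at an unadjusted p under 0.05 in limma, and 5 by limma without a trend or 1 on the variance of each miRNA alone at an adjusted p under 0.05, no member among them). At a fold change over 1.5 with an unadjusted p under 0.05, the thresholds of the methods, miR-146b-5p was the only member called. That made 1 of 8 lower, against 7.32% of all miRNAs tested, and 0 of 8 higher, against 5.85%. The groups did not overlap for 3 members with EXO2 above, against 11.5% of all miRNAs tested, and for 1 with EXO2 below, against 9.51%. The median log2 fold change was 0.19 over the members and -0.56 over all 410 miRNAs. That background depends on miRNAs with low values: over the 256 miRNAs with 10 or more normalized CPM in at least 3 libraries, which include all 8 members, it was -0.055, and 27 of the calls were then higher and 17 lower. Of the 54 calls, 24 were higher and 30 lower, a split of 8 and 22 with library totals as the scale, 18 and 43 with median-ratio factors, 36 and 30 with factors computed without the red cell list, and 37 and 26 in CPM over the reads outside the red cell and muscle lists.

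miR-146b-5p, a brake on Toll-like receptor signalling, had the lowest log2 fold change of the members over all 6 libraries with 1 added to each value. It stood at 964, 888 and 4750 normalized CPM in EXO1 replicates 1, 2 and 3 and at 510, 283 and 378 in EXO2 replicates 1, 2 and 3. The groups did not overlap, and EXO1 replicate 3 was 4.93 times the next EXO1 library. Group means were 2201 ± 2208 in the EXO1 libraries and 390 ± 114 in the EXO2 libraries (SD, n = 3 each). Its log2 fold change was -2.07 (SE 0.64, adjusted p = 0.297 from limma). The study had picked miR-146b-5p from these libraries as lower, so its call here is not independent evidence of the direction. Without EXO1 replicate 3 the log2 fold change was -1.29 (adjusted p = 0.260), and it stayed past the thresholds of the methods when any 1 library was left out.

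In rank among all miRNAs of a library, miR-146b-5p was at place 23 in EXO1 replicate 3, at 65 and 58 in the other EXO1 libraries and at 82 to 102 in EXO2. In CPM over the reads outside the red cell and muscle lists it had 2707, 3403 and 8693 in the EXO1 libraries and 1843, 922 and 1208 in the EXO2 libraries, again without overlap. Scaled only to all miRNA reads, the groups did overlap, with 259 CPM in EXO1 replicate 1, where muscle miRNAs took most reads, and 759 in EXO2 replicate 1. With library totals as the scale miR-146b-5p did not pass the thresholds of the methods (log2 fold change -1.76, adjusted p = 0.552 from limma). EXO1 replicate 3, the highest library for miR-146b-5p, was also the highest for a list of 5 smooth muscle and fibroblast miRNAs such as miR-143-3p and miR-199a-3p. All 5 were above 0 in every library, and their summed normalized CPM was 10241, 14524 and 107575 in the EXO1 libraries and 7495 to 9824 in the EXO2 libraries. The part of such cells in the difference of miR-146b-5p was not tested.

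miR-146a-5p, which shares the seed of miR-146b-5p, differed less between the groups. It stood at 1616, 882 and 1838 normalized CPM across EXO1 and at 989, 852 and 851 across EXO2, so that EXO1 replicate 2 lay within the EXO2 values. Its means were 1445 ± 501 and 897.1 ± 79.6 (SD, n = 3 each). Its log2 fold change was -0.62 (SE 0.50, adjusted p = 0.490 from limma). Against the median of all miRNAs miR-146a-5p lay at -0.063, and at -0.14 to 0.11 over 4 other scalings, but it lay at -0.57 against the median of the 256 miRNAs with higher values and at -0.61 without EXO1 replicate 2. Without EXO1 replicate 2, miR-146a-5p had a log2 fold change of -0.95 and passed the thresholds of the methods (adjusted p = 0.306).

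The quotient of reads of the miR-146 pair within a library, which does not depend on the scaling factor, had its lowest values in the EXO2 libraries. For each read of miR-146a-5p there were 0.596, 1.01 and 2.58 of miR-146b-5p in EXO1 replicates 1, 2 and 3 and 0.515, 0.332 and 0.444 in EXO2. miR-146a-5p was thus the more abundant of the pair in all EXO2 libraries and in 1 of the 3 EXO1 libraries. On the log2(normalized CPM + 1) scale, used for the log2 ratio of every pair, miR-146b-5p to miR-146a-5p was 0.21 ± 1.07 in the EXO1 libraries and -1.24 ± 0.32 in the EXO2 libraries (SD, n = 3 each), without overlap. The difference of -1.45 (SE 0.65) gave p = 0.1 in a 2-sided exact permutation test, the smallest that 3 against 3 libraries allow, and p = 0.5 after adjustment over the 5 ratios compared. EXO1 replicate 1, at -0.75, was close to EXO2 replicate 1, at -0.96, and without EXO1 replicate 3 the difference was -0.87.

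**Figure D2:**
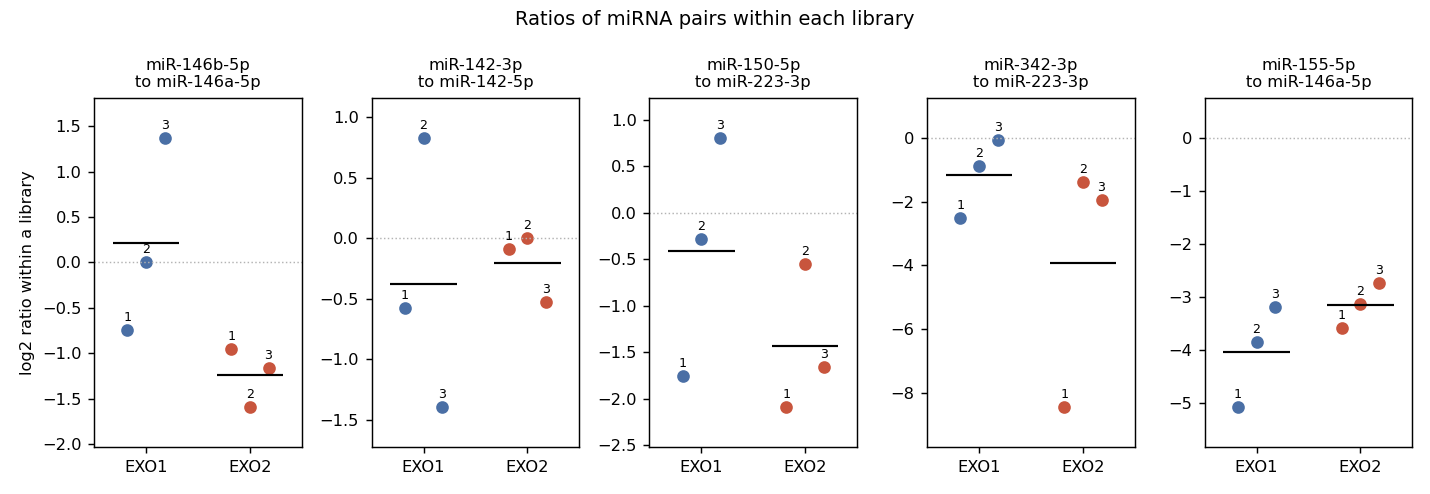
Log2 ratios of 5 pairs of miRNAs within each library, with replicate numbers on the points, bars for group means and a dotted line at equal values. For miR-146b-5p to miR-146a-5p the EXO2 points, from -1.59 to -0.96, lie below the EXO1 points, from -0.75 to 1.37, and in the other 4 panels the groups overlap.

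miR-155-5p, the inflammatory member of the NF-κB-induced miRNAs, was low in both groups. It stood at 46.9, 60.4 and 200.1 normalized CPM across EXO1 and at 81.5, 95.8 and 126.9 across EXO2. The EXO2 values lay within the EXO1 range, which was set by replicate 3 at 3.32 times the next EXO1 library. Its means were 102.5 ± 84.9 and 101.4 ± 23.2 (SD, n = 3 each). Its log2 fold change was 0.26 (SE 0.81, adjusted p = 0.872 from limma), and the sign turned without EXO1 replicate 1, at -0.14, while it was 0.89 without EXO1 replicate 3. In relation to miR-146a-5p, its counterpart in the same pathway, there were 0.0290, 0.0684 and 0.109 reads of miR-155-5p per read in the EXO1 libraries and 0.0824, 0.113 and 0.149 in the EXO2 libraries. The groups overlapped, and the log2 ratio differed by 0.89 (SE 0.60, 2-sided exact permutation p = 0.2, adjusted p = 0.5 over the ratios), or by 0.37 without EXO1 replicate 1.

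miR-223-3p, the myeloid member, had the highest log2 fold change of the 8 over all 6 libraries, although miR-142-3p was ahead of it without EXO1 replicate 2 (1.22 against 0.81) and without EXO2 replicate 1 (0.95 against 0.84). It stood at 229, 93.7 and 152 normalized CPM across EXO1 and at 501, 251 and 283 across EXO2. Every EXO2 library was above every EXO1 library, although EXO2 replicate 2 and EXO1 replicate 1 were close. Means were 158 ± 68.0 in the EXO1 libraries and 345 ± 136 in the EXO2 libraries (SD, n = 3 each). Its log2 fold change was 1.14 (SE 0.63, adjusted p = 0.379 from limma). It ranged from 0.81 without EXO1 replicate 2 to 1.45 without EXO1 replicate 1, where it passed the thresholds of the methods (adjusted p = 0.173). It also passed them with factors computed without the red cell list and in CPM over the reads outside the red cell and muscle lists (adjusted p = 0.292 and 0.322 in limma). In the latter unit miR-223-3p had 644, 359 and 279 in the EXO1 libraries and 1810, 819 and 904 in the EXO2 libraries, again without overlap.

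Red cell and platelet miRNAs were measured beside miR-223-3p. All 9 red cell miRNAs were above 0 in every library, with summed normalized CPM of 70830 to 292114 in the EXO1 libraries and 386669 to 672641 in the EXO2 libraries. All 6 miRNAs of a platelet list, among them miR-126a-3p and miR-191a-5p, were above 0 in every library, and their sum was 25929 to 98996 in the EXO1 libraries and 31056 to 40696 in the EXO2 libraries. Of these 6, 1 had all EXO2 values above all EXO1 values, against 11.5% of all miRNAs tested. This was miR-191a-5p, with a log2 fold change of 1.06 (adjusted p = 0.342 from limma). Most of the platelet list went the other way, with 2 log2 fold changes above 0 and 4 below. Its median was -0.34, against -0.56 over all 410 miRNAs and -0.055 over the 256 with higher values. The part of red cells and platelets in the difference of miR-223-3p was not tested.

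Both arms of miR-142, the precursor shared by blood cell lineages, had higher values in EXO2. miR-142-5p stood at 1131, 567 and 877 normalized CPM across EXO1 and at 1154, 1358 and 1589 across EXO2. The groups were separated by the small gap between EXO1 replicate 1 and EXO2 replicate 1. Its log2 fold change was 0.71 (SE 0.49, adjusted p = 0.449 from limma), falling to 0.44 when EXO1 replicate 2 was left out. miR-142-3p stood at 760, 1006 and 334 in the EXO1 libraries and at 1086, 1359 and 1104 in the EXO2 libraries. Here EXO1 replicate 2 came close to the EXO2 libraries and EXO1 replicate 3 was far below all others. Its log2 fold change was 0.89 (SE 0.54, adjusted p = 0.397 from limma), 0.43 without EXO1 replicate 3, and 1.22 without EXO1 replicate 2, where it passed the thresholds of the methods (adjusted p = 0.301).

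The arm in excess changed between EXO1 libraries. The quotient of miR-142-3p to miR-142-5p was 0.672, 1.77 and 0.381 in the EXO1 libraries and 0.941, 1.001 and 0.695 in the EXO2 libraries. The 5p arm led in EXO1 replicates 1 and 3 and the 3p arm led in EXO1 replicate 2. The arms were close to equal in EXO2 replicates 1 and 2, while EXO2 replicate 3 was near EXO1 replicate 1. The log2 ratio was -0.38 ± 1.12 in the EXO1 libraries and -0.20 ± 0.28 in the EXO2 libraries (SD, n = 3 each). The difference of 0.18 (SE 0.67) was smaller than the spread between libraries, with p = 0.8 in a 2-sided exact permutation test (adjusted p = 0.8 over the ratios), and it changed sign without EXO1 replicate 3, at -0.33, and was 0.78 without EXO1 replicate 2. The sum of both arms was 1891, 1573 and 1211 normalized CPM across EXO1 and 2240, 2717 and 2693 across EXO2, so in this unit the groups stood further apart for the sum than for either arm. Scaled only to all miRNA reads, miR-142-3p overlapped, with 2040 CPM in EXO1 replicate 2 against 1112 to 1617 in EXO2. miR-142-5p did not overlap on that scale, with 304 to 1408 in EXO1 and 1513 to 1718 in EXO2. In CPM over the reads outside the red cell and muscle lists, miR-142-5p was at 1605 to 3177 in the EXO1 libraries and 4173 to 5075 in the EXO2 libraries without overlap, whereas for miR-142-3p the 3856 of EXO1 replicate 2 exceeded the 3526 of EXO2 replicate 3.

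**Figure D3:**
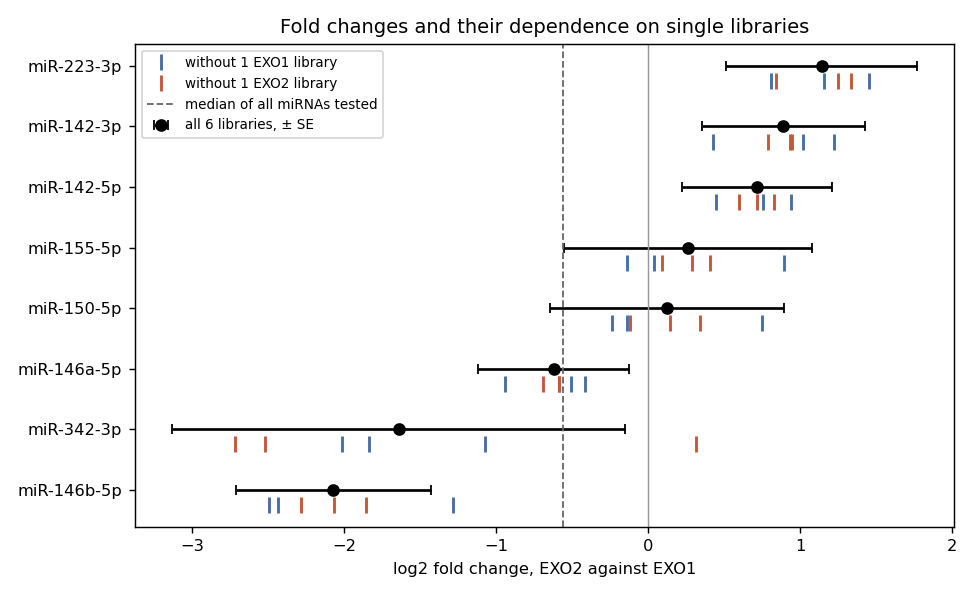
Log2 fold change of each miRNA, EXO2 against EXO1, from limma. Black points with bars give the estimate with its standard error from all 6 libraries, short marks give the estimate with 1 EXO1 or 1 EXO2 library left out, and the dashed line is the median of all 410 miRNAs at -0.56, which is -0.055 over the 256 with higher values. miR-223-3p and both miR-142 arms stay above 0 and both miR-146 miRNAs below 0 in every case, while miR-150-5p, miR-155-5p and miR-342-3p cross it.

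Of the lymphoid members, miR-150-5p did not separate the groups. It stood at 67.2, 77.0 and 266 normalized CPM across EXO1 and at 117, 171 and 89.1 across EXO2, with all EXO2 values inside the EXO1 range and EXO1 replicate 3 at 3.46 times the next EXO1 library. Its means were 137 ± 112 and 126 ± 41.5 (SD, n = 3 each). The log2 fold change was 0.12 (SE 0.77, adjusted p = 0.940 from limma) and changed sign without EXO1 replicate 1, at -0.24, without EXO1 replicate 2, at -0.14, without EXO2 replicate 2, at -0.12, and with median-ratio factors, at -0.082. Without EXO1 replicate 3 it was 0.75. The libraries therefore gave no stable direction for miR-150-5p.

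The direction of miR-342-3p, encoded within Evl, was set by a single library. It stood at 39.3, 50.6 and 148 normalized CPM across EXO1 and at 0.443, 95.1 and 72.4 across EXO2. The value of EXO2 replicate 1 came from 2 reads, below the floor of 3 reads, whereas EXO2 replicates 2 and 3 held 530 and 272 reads. The mean of those 2 libraries was 189-fold that of EXO2 replicate 1, and the 2 reads allow 52.4 to 1562 as its 95% Poisson limits. The log2 fold change was -1.64 (SE 1.49, adjusted p = 0.534 from limma), the largest standard error among the members, and it was 0.31 without EXO2 replicate 1. It was below that of miR-146b-5p without EXO2 replicate 2 (-2.72 against -1.86), without EXO2 replicate 3 (-2.52 against -2.07) and with 0.1 in place of 1 added to each value (-2.10 against -2.07). EXO2 replicate 1 held 368 or more reads of each other member, and it was the highest library of all for miR-223-3p.

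Lymphoid and myeloid members were compared within libraries. For each read of miR-223-3p there were 0.293, 0.822 and 1.75 of miR-150-5p in the EXO1 libraries and 0.234, 0.680 and 0.315 in the EXO2 libraries. The libraries of the groups overlapped, and miR-150-5p exceeded miR-223-3p in EXO1 replicate 3 only. The log2 ratio differed by -1.02 (SE 0.87, 2-sided exact permutation p = 0.3, adjusted p = 0.5 over the ratios), by -0.41 without EXO1 replicate 3 and by -1.69 without EXO1 replicate 1. For miR-342-3p there were 0.171, 0.540 and 0.968 reads per read of miR-223-3p in the EXO1 libraries and 8.85e-04, 0.379 and 0.256 in the EXO2 libraries. This log2 ratio, in which the added 1 weighs on the value from 2 reads, differed by -2.78 (SE 2.38, 2-sided exact permutation p = 0.4, adjusted p = 0.5 over the ratios), by -0.53 without EXO2 replicate 1, by -4.05 without EXO2 replicate 2 and by -3.77 without EXO2 replicate 3. Neither difference was larger than the spread between libraries.

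The make-up of the 8 miRNAs had less of the miR-146 pair and more of the miR-142 arms in each EXO2 library than in any library of EXO1. The miR-146 pair gave 53.2%, 48.8% and 76.9% of the members' reads in the EXO1 libraries and 33.8%, 25.4% and 27.4% in the EXO2 libraries. Both miR-142 arms together gave 39.0%, 43.4% and 14.1% in the EXO1 libraries and 50.5%, 60.9% and 59.9% in the EXO2 libraries. Groups did not overlap for either share, and since these are shares of 1 total, a higher share of the one lowers the other. miR-146b-5p alone gave 55.5% in EXO1 replicate 3, against 19.9% and 24.5% in the other EXO1 libraries and 6.33% to 11.5% in EXO2. The groups overlapped for miR-146a-5p alone (21.5% to 33.3% in EXO1, 18.9% to 22.3% in EXO2). Between the miR-142 arms, they overlapped for the 3p arm (3.90% to 27.8% against 24.5% to 30.5%) but not for the 5p arm (10.2% to 23.3% against 26.0% to 35.4%). The other 4 members together gave 7.77% to 8.95% in the EXO1 libraries and 12.7% to 15.8% in the EXO2 libraries. Of these, miR-223-3p gave 1.78% to 4.73% in EXO1 and 5.63% to 11.3% in EXO2, without overlap. The groups overlapped for miR-155-5p (0.966% to 2.34% against 1.84% to 2.83%). They also overlapped for miR-150-5p with miR-342-3p (2.19% to 4.83% against 2.65% to 5.96%). Summed over all 8, the normalized CPM was 4854, 3625 and 8566 in the EXO1 libraries and 4438, 4464 and 4493 in the EXO2 libraries.

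**Figure D4:**
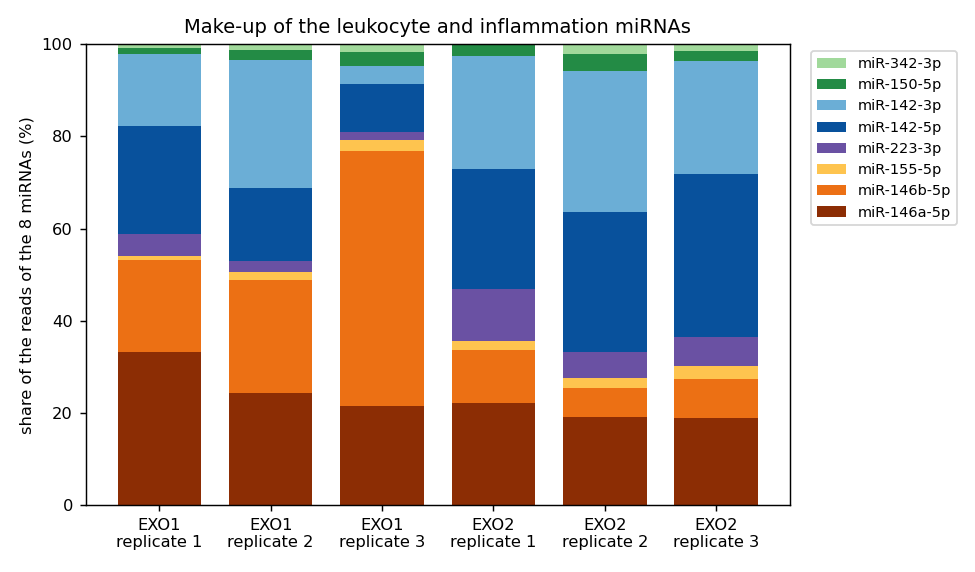
Share of each of the 8 miRNAs in their combined reads (%), 1 bar per library, with bars adding to 100. The miR-146 pair at the bottom takes 48.8% to 76.9% of the EXO1 bars and 25.4% to 33.8% of the EXO2 bars.

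By group mean, the order in EXO1 was miR-146b-5p, miR-146a-5p, miR-142-5p, miR-142-3p, miR-223-3p, miR-150-5p, miR-155-5p and miR-342-3p. In EXO2 it was miR-142-5p, miR-142-3p, miR-146a-5p, miR-146b-5p, miR-223-3p, miR-150-5p, miR-155-5p and miR-342-3p. All are molecules of 21 to 24 bases where the sequence is given above, and no scaling by length was applied. Neighbours whose means differed by more than the larger of their SDs were miR-146a-5p over miR-142-5p and miR-142-3p over miR-223-3p in EXO1, and miR-142-3p over miR-146a-5p, miR-146a-5p over miR-146b-5p and miR-223-3p over miR-150-5p in EXO2. The other neighbours in either order did not differ beyond that spread. Of these, miR-150-5p over miR-155-5p and miR-155-5p over miR-342-3p still held in all 3 EXO1 libraries. In all 3 EXO2 libraries, miR-146b-5p over miR-223-3p and miR-155-5p over miR-342-3p held. The remaining neighbours kept their order in 2 of 3 libraries. Among them was the lead of miR-146b-5p in EXO1, which in EXO1 replicate 2 was only 888 against 882 normalized CPM.

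Of the 6 opposite arms of the members' precursors other than miR-142, 3 were in the table, and none exceeded 29.8 normalized CPM in any library except miR-223-5p in EXO2 replicate 3, with 419 reads. miR-342-5p, which the study had also picked from these libraries as lower, stood at 16.5, 2.60 and 6.19 normalized CPM in EXO1 and at 0 in all EXO2 libraries. With 3 reads per library in place of 0, its EXO2 mean was at least 12.6-fold lower, or at least 6.58-fold lower without EXO1 replicate 1. It passed the thresholds of the methods (adjusted p = 0.333 from limma), which made 1 of 3 lower, against 7.32% of all miRNAs tested. Its partner miR-342-3p was well read in EXO2 replicates 2 and 3, with 530 and 272 reads. miR-223-5p stood at 22.2, 14.7 and 3.09 in the EXO1 libraries and at 19.9, 25.3 and 112 in the EXO2 libraries, and its log2 fold change was 1.79 (SE 1.41, adjusted p = 0.490 from limma). The excess of miR-223-3p over miR-223-5p was 6.37 to 49.3 times in the EXO1 libraries and 2.54 to 25.1 times in the EXO2 libraries. miR-150-3p stood at 29.8, 3.46 and 10.4 in the EXO1 libraries and at 22.6, 0 and 0.266 in the EXO2 libraries, and its log2 fold change was -1.90 (SE 1.77, adjusted p = 0.542).

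A further list of 16 miRNAs of lymphoid cells or of Toll-like receptor and NF-κB signalling was measured in full. Of the 16, 8 had positive and 8 had negative log2 fold changes, with a median of -0.088, against -0.56 over all 410 miRNAs and -0.055 over the 256 with higher values. None passed an adjusted p of 0.05, and 1, miR-9a-5p, which the study had picked as higher, passed the thresholds of the methods, with 437 to 589 normalized CPM in EXO1 against 1346 to 1801 in EXO2. That made 1 of 16 higher, against 5.85% of all miRNAs tested, and 0 lower, against 7.32%. The groups did not overlap for 2 of the 16 with EXO2 above, against 11.5%, and for 1 with EXO2 below, against 9.51%. Those above were miR-9a-5p and a member of the lymphocyte-promoting miR-17-92 cluster, miR-17-5p (1272 to 1689 normalized CPM in EXO1 against 1983 to 2996 in EXO2, log2 fold change 0.78, adjusted p = 0.398 from limma). miR-125a-5p, a myeloid and lymphoid regulator, had all EXO2 values below all EXO1 values (215 to 600 against 90.7 to 199, log2 fold change -1.14, adjusted p = 0.389). miR-181a-5p, a regulator of T cell receptor signalling, was at 907, 678 and 2714 in the EXO1 libraries and at 1294, 1116 and 1341 in the EXO2 libraries, with EXO1 replicate 3 highest, as for miR-150-5p.

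Profiles over the 6 libraries were compared by the root mean square difference of log2 values centred on each miRNA's mean, over 270 other miRNAs with a mean of 10 or more. Nearest to miR-146b-5p were miR-199a-3p (0.49), miR-199a-5p (0.52) and miR-455-5p (0.54), of which the first 2 are fibroblast miRNAs. The distance from miR-146b-5p to its seed partner miR-146a-5p was larger, at 0.97. Nearest to miR-150-5p were miR-125b-5p (0.30), the endothelial miR-126a-3p (0.37) and miR-181a-5p (0.39), and among the members its nearest was miR-155-5p (0.41). Nearest to miR-223-3p were the epithelial miR-203a-3p (0.34), miR-191a-5p (0.41) and the epithelial miR-205 (0.42), and among the members its nearest was miR-142-5p (0.48). These distances compare miRNAs measured in the same 6 libraries, each with its own depth and composition, and they say nothing of a common source.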

How the data were processed

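Per the methods, adapters were removed, reads shorter than 15 nucleotides were discarded and miRDeep2 was used for annotation. The submitters' processing notes list cutadapt 1.14, Bowtie and edgeR 3.18.1. The sources used here name neither a genome build nor a miRNA release. The authors deposited a signal value per library and miRNA, headed CPM, in which 100% of values were whole multiples of 1 step per library (relative tolerance 1e-06). That step was taken as 1 read, and the factors so obtained equal recomputed TMM factors. The deposited log2 group means were used only as a check. Of 468 rows, 420 mature miRNAs were kept, each with its highest row. The main test was limma 3.58.1 in R 4.3.3 (trend, log2(value + 1), above 0 in at least 2 libraries, Benjamini-Hochberg adjustment over 410 miRNAs). It was checked on simulated normal values with the same spread in both groups. That check cannot show how the test behaves with unequal group spreads, as seen for miR-146b-5p. Reads taken from that step were used for intervals, quotients, shares of reads and the floor of 3 reads. CPM on other scales and the 4 other scalings fitted in limma also rest on them. No count model was fitted, since the rule followed asks for 100 values of at most 20 reads per library, which 1 of the 6 libraries held (range 42 to 129). Ratios of 5 pairs were compared by exact permutation tests. Wilson and Poisson intervals are at 95%. Alternatives covered scaling, filters, pseudocounts of 0.5 and 0.1, repeated rows, variance, a block for the replicate number, and every library left out in turn. The miRNAs named were the 8 members, 2 lists of related miRNAs, lists of other cell types and, for 3 members, the 3 nearest profiles, and members and lists were chosen with earlier results of these data known. Other steps ran in Python 3.11.15 with scipy 1.17.1.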

Additional observations from a re-analysis of the deposited data

How the results depend on the processing

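Over 19 alternatives, miR-142-3p, miR-142-5p, miR-223-3p, miR-146a-5p and miR-146b-5p kept the direction of their log2 fold changes, and none of the 8 members passed an adjusted p of 0.05 in limma under any of them. miR-146b-5p passed the thresholds of the methods in 17 of the 19, the exceptions being library totals as the scale and a variance taken from that miRNA alone. The latter is the setting nearest to the Student's t-test named in the methods. The methods also name edgeR, which was not run here, and the paper lists miR-146b-5p as significantly lower. The sign changed for miR-150-5p with median-ratio factors (-0.082) and when libraries were left out (range -0.24 to 0.75), for miR-155-5p (range -0.14 to 0.89) and for miR-342-3p (range -2.72 to 0.31). The log2 ratio of miR-142-3p to miR-142-5p ranged from -0.33 to 0.78 without 1 library. Of all miRNAs, 54 passed the thresholds of the methods, 30 with library totals as the scale, 103 without EXO1 replicate 1 and 33 without EXO2 replicate 3. The causes were not tested. With the replicate number as a block, 41 passed, and the difference in the miR-146 ratio stayed at -1.45 (exact sign-flip p = 0.25, the smallest that 3 pairs allow). No sign of pairing by number was seen, as deviations of same-numbered libraries correlated at -0.04, 0.06 and -0.12. Deviations from means of 3 libraries cannot decide whether the libraries were paired. The median log2 fold change of all miRNAs moved from -0.56 to between -0.69 and -0.35 with the scale, to -0.75 with a pseudocount of 0.1 and to -0.055 over the 256 miRNAs with 10 or more in at least 3 libraries. Against it, miR-146b-5p lay at -1.51, at -1.59 to -1.34 over the 4 other scalings, at -2.02 over the 256 miRNAs and at -0.87 without EXO1 replicate 3. At 3 libraries per group, differences such as that of miR-150-5p were not detectable beyond the spread.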

Other observations

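EXO1 replicate 3 was the highest of all 6 libraries for 5 of the 8 members, miR-150-5p, miR-155-5p, miR-146a-5p, miR-146b-5p and miR-342-3p, and for 26.6% of all 410 miRNAs tested. For 4 members it exceeded both other EXO1 libraries by more than 2 times, as it did for 23.4% of all miRNAs tested. It was the lowest of all libraries for miR-142-3p. The member with the widest range over the libraries was miR-342-3p, at 333 times between highest and lowest (95% Poisson limits 92.3 to 2752 from the 2 reads of the lowest), followed by miR-146b-5p at 16.8 times, and the narrowest was miR-146a-5p at 2.16 times.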
